A study of Mus musculus with 4 samples.

Results

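The genes described here are 10 components and outputs of insulin receptor signaling in mouse ATDC5 cells. They are the receptors Insr and Igf1r, the docking proteins Irs1 and Irs2, the kinases Akt1 and Akt2, the transcription factors Foxo1 and Foxo3, and Pdk4 and Sesn3, which are described targets of FoxO factors. Members were taken by gene symbol from probe sets annotated to exactly 1 gene, with the brightest probe set kept for each gene. All 10 were measured, among 19938 genes in all. ATDC5 is a clonal line of chondroprogenitor cells that forms cartilage-like matrix in culture.

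All samples were grown in DMEM/F12 with fetal bovine serum, L-glutamine, an antibiotic and ascorbic acid. The day 0 group was kept undifferentiated in that medium, and the day 15 group received Insulin-Transferrin-Selenite in addition for 15 days. Each group had 2 samples with 1 array of total RNA each, and the labels number the samples of each day 1 and 2. No group was cultured for 15 days without the supplement, so insulin, the other 2 supplements, time in culture and differentiation cannot be told apart.

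Insulin and the insulin-like growth factors bind related receptor tyrosine kinases, which phosphorylate the Irs docking proteins. These recruit PI3-kinase, whose lipid product brings Akt kinases to the membrane for activation. Akt phosphorylates FoxO transcription factors and so keeps them out of the nucleus, where they would otherwise activate genes of stress resistance, fuel switching and growth arrest. Several pathway genes, among them Insr and Irs2, are themselves FoxO targets in other tissues. Much of this pathway acts through phosphorylation, which RNA levels do not measure. In cartilage, insulin at culture doses also acts through the Igf1r receptor, and ATDC5 cells are commonly differentiated with it.

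Values below are log2 of the deposited intensity plus 1 after quantile normalization between arrays. Each array's value is given in the order day 0 replicate 1, day 0 replicate 2, day 15 replicate 1, day 15 replicate 2. A difference is the day 15 mean minus the day 0 mean in log2, SE is limma's moderated standard error, and a gene was called where its Benjamini-Hochberg adjusted p over all genes was below 0.05. Levels of different genes come from different probe sets and are not compared. The number of arrays limits the precision. Nothing in the labels says that the samples of a day are separate cultures, and p-values therefore cover the spread between these samples, which may only be technical. In bulk RNA, fewer cells expressing a gene and less RNA per cell cannot be told apart.

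The arrays' deposited medians differed by at most 0.20 log2. The arrays of 1 day correlated across genes at 0.983 to 0.984, and arrays of different days at 0.962 to 0.973. Ranked by the typical gap of a gene (median absolute difference, log2), the closest arrays were replicate 2 of the different days (0.187), before the day 0 pair (0.199), replicate 1 of the different days (0.217) and the day 15 pair (0.224). Of 8 defining cartilage markers measured, 5 rose (Hapln1, Col10a1, Acan, Col2a1 and Sox6) and none fell at day 15. Markers of fat, skeletal muscle, osteoclasts and myelin had no called gene among 7, 6, 6 and 4 measured, and 1, 0, 0 and 0 of them had a limma unadjusted p below 0.05. Macrophage markers differed by replicate number. Of 13 measured, 11 were higher on the replicate 1 array than on the replicate 2 array on both days, 7 of them by at least 1 log2. The other 2, Ptprc and Adgre1, were lower on replicate 1 on both days. Of all 19938 genes, 6805 were higher on replicate 1 on both days, 68 of them by at least 1 log2. None of the 13 macrophage markers was called between days by limma, and 1, the lysozyme gene Lyz2 (difference 1.20 log2), had an unadjusted p below 0.05. Their linear levels summed to 11196 and 2729 at day 0 and to 11808 and 4245 at day 15. C1qb, a complement subunit made by macrophages, was the most uneven example at 11.36, 6.09, 11.11 and 5.80. Of the 4 myelin markers, 2 were also higher by at least 1 log2 on both replicate 1 arrays, with Mbp at 9.35, 6.52, 9.42 and 6.61 and Mobp at 8.89, 6.49, 9.17 and 6.50. The order of the replicates reversed between days for Mag and Mog.

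None of the 10 members was called between day 15 and day 0 by limma, against 1.72% of all genes (342 of 19938). The unadjusted p was below 0.05 for 4 members, Igf1r, Irs2, Pdk4 and Sesn3, and for 12.2% of all genes. The first 3 of these were lower at day 15 and Sesn3 was higher. A difference of at least 1 log2 was found for 3 members (Igf1r, Irs2 and Pdk4) and for 3.96% of all genes, and the smallest difference called for any gene was 1.04. On simulated data this fit recovered 6% of changes of 1 log2, so a member that was not called may still differ. Day 0 and day 15 arrays did not overlap for 6 members, 4 lower at day 15 (Igf1r, Irs2, Akt1 and Pdk4) and 2 higher (Akt2 and Sesn3). That separation is common in this data set, at 40.1% of all genes (17.8% lower and 22.3% higher at day 15). The median difference of the members was −0.08 log2, beside 0.02 for all genes.

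**Figure D1:**
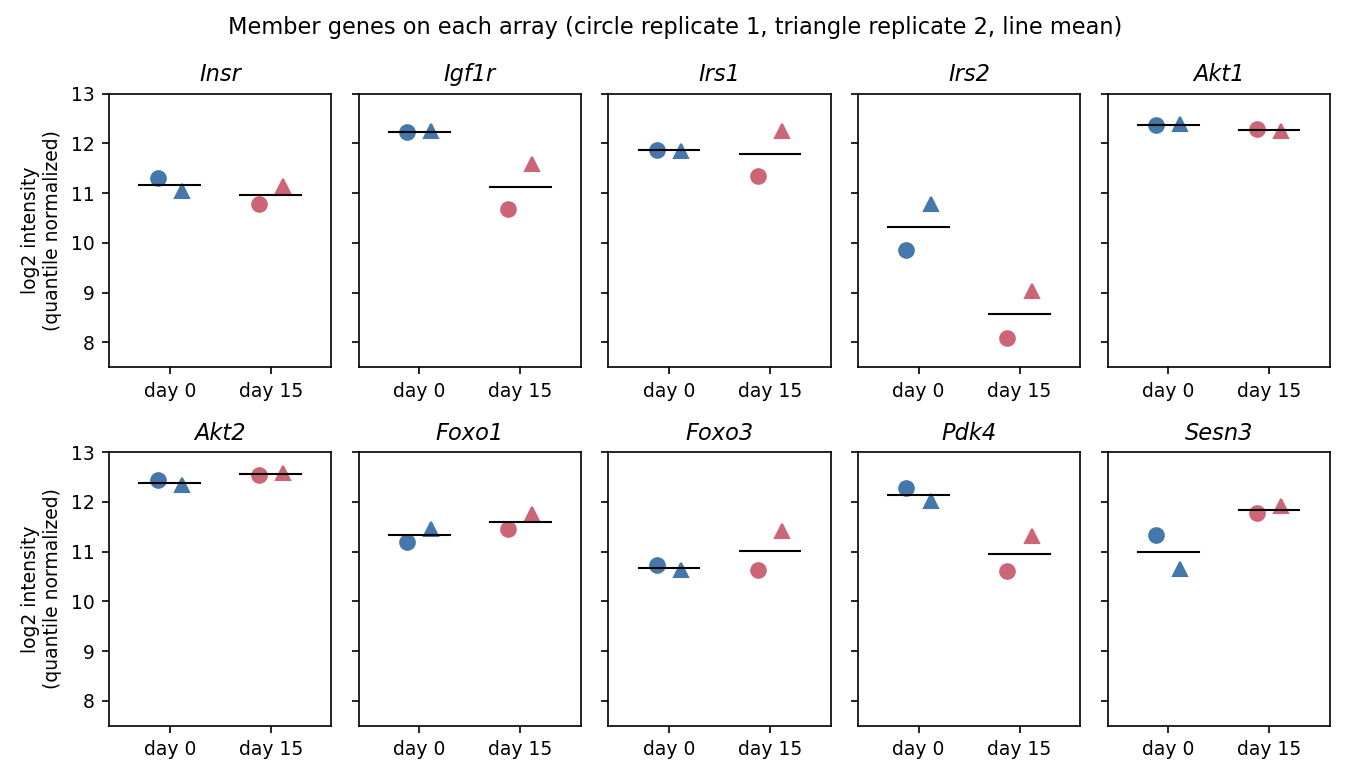
Each panel shows log2 intensity of 1 member gene on the 4 arrays, with circles for replicate 1, triangles for replicate 2 and a line at the mean of the 2 arrays of a day. Igf1r, Irs2 and Pdk4 lie lower at day 15 and Sesn3 lies higher, while the day 15 arrays of Irs1 lie on either side of those of day 0. Heights are not comparable between genes.

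**Figure D2:**
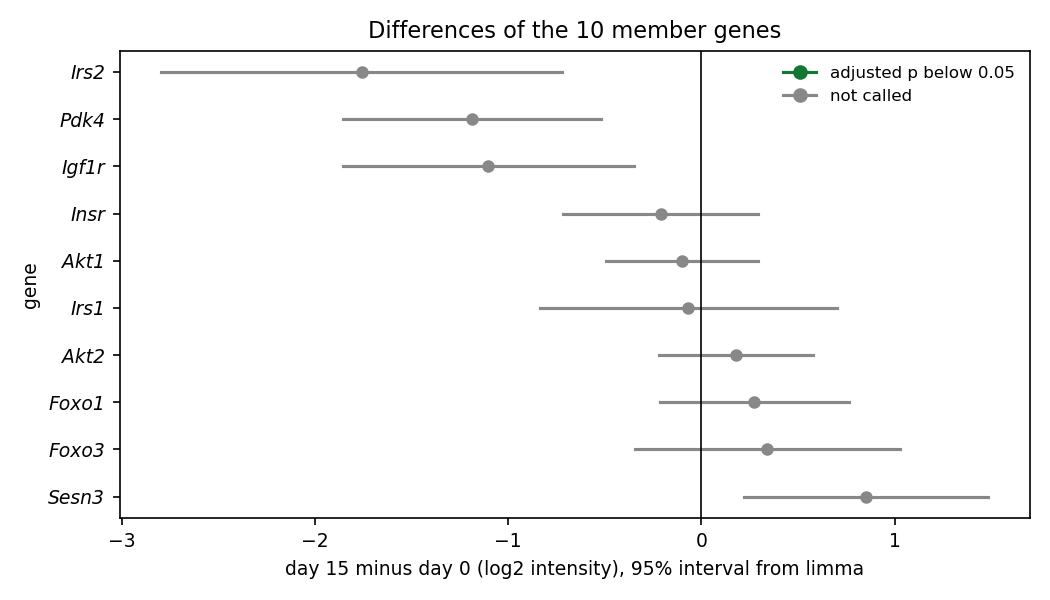
Points are day 15 minus day 0 differences in log2 intensity and bars are limma's 95% intervals, each for 1 gene over 4 arrays. The intervals of Irs2, Pdk4, Igf1r and Sesn3 leave out 0 without adjustment, and no member is called after adjustment over 19938 genes.

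The receptor genes gave different values. Igf1r, the receptor for insulin-like growth factors, which also binds insulin at high dose, measured 12.23, 12.24, 10.69 and 11.57. Both day 15 arrays were below both day 0 arrays, and the day 0 arrays were nearly equal while the day 15 arrays lay 0.89 log2 apart. The means were 12.23 ± 0.01 and 11.13 ± 0.63 (SD, n = 2), a difference of −1.10 ± 0.31 (SE) or 2.15-fold lower, which was not called (limma adjusted p = 0.215). Without day 15 replicate 1 the difference was −0.66, and without day 15 replicate 2 it was −1.55 (limma adjusted p = 0.402 and 0.0548). Insr, the insulin receptor itself, measured 11.29, 11.05, 10.78 and 11.14, so that the days overlapped. Its difference of −0.21 ± 0.20 (SE) was not called (limma adjusted p = 0.835), with a 95% interval of −0.72 to 0.29. Leaving out day 15 replicate 1 or day 15 replicate 2 gave −0.03 or −0.39. A second, dimmer probe set of Insr gave 10.55, 10.54, 9.83 and 10.53, a difference of −0.36 in which only day 15 replicate 1 stood apart.

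The docking proteins Irs1 and Irs2 link the receptors to PI3-kinase. Irs2 had the largest difference of all members. It measured 9.85, 10.79, 8.09 and 9.03, with both day 15 arrays below both day 0 arrays and the replicate 1 array lower by 0.93 to 0.94 log2 on each day. The means were 10.32 ± 0.66 and 8.56 ± 0.67 (SD, n = 2), and the difference of −1.76 ± 0.42 (SE), 3.38-fold lower, was not called (limma adjusted p = 0.157). Leaving out 1 array at a time gave differences from −2.23 to −1.29. The macrophage marker sum given above is higher on the same replicate 1 arrays on which Irs2 was lower, and its part in the value of Irs2 was not tested. Lower values on replicate 1 on both days were found for 3 of the 10 members, Irs2 included, and for 28.5% of all genes. Irs1 measured 11.86, 11.85, 11.33 and 12.24, with the day 15 arrays on either side of day 0. Its difference was −0.07 ± 0.31 (SE; limma adjusted p = 0.985), with a 95% interval of −0.84 to 0.70, and it turned to 0.39 without day 15 replicate 1. A dimmer probe set of Irs1 also had replicate 1 below replicate 2 at day 15, at 7.14 and 8.37, and a difference of −0.09.

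The promoters of the docking protein genes are shown because the genes share a short FoxO-type sequence next to the start but differ in their values. The 250 bases before the RefSeq start (GRCm38.p6, minus strand) are given 5′ to 3′, for Irs2 at chr8:11008930-11009179 and for Irs1 at chr1:82291440-82291689, with matches in capitals.
Irs2: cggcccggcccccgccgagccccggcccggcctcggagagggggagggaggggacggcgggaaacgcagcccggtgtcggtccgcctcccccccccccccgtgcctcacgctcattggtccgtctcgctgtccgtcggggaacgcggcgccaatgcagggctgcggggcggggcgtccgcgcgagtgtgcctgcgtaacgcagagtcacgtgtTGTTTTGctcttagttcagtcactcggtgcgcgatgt
Irs1: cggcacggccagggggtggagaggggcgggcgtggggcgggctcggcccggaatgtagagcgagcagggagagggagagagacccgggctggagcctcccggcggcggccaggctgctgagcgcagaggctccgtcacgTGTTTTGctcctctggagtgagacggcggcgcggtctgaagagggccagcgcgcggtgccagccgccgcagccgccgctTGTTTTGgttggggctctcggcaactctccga
The capitals mark TGTTTTG, the reverse complement of the insulin response letters CAAAACA. The match begins 37 bases before the start of Irs2, and 111 and 32 bases before that of Irs1. Windows of 300 bases, from 250 before to 50 after a start, were searched on both strands for these letters and for the FoxO core GTAAACA (reverse complement TGTTTAC). The letters CAAAACA were found in 6.28% of all 32851 RefSeq windows, GTAAACA in 3.65% and either in 9.63%. Both motifs end in the letters AAACA. Of 9 members with a window, 3 held a match, and the third was Akt1, with TGTTTAC beginning 161 bases before the start of 1 of its 2 windows. This counts genes, which had 13 windows in all, whereas the shares above count single windows. A match is a description of letters and not a measured site.

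The genes whose 4 values ran closest to those of Irs2 were found by the root mean square distance of mean-centred log2 values over the 4 arrays, among 19937 other genes. They were Zfp469 (distance 0.17 log2), a zinc finger gene, Cyp1b1 (0.22), a cytochrome P450, Cacna1c (0.23), a calcium channel subunit, Lrp8 (0.24), a lipoprotein receptor, and Smad7 (0.25), an inhibitory Smad. Smad7 measured 11.23, 11.98, 9.69 and 9.94 and fell by 1.79 log2 (limma adjusted p = 0.0492). The other 4 differed by −1.60 to −1.37 and were not called (limma adjusted p = 0.0634 to 0.167). Because these genes were chosen for values like those of Irs2, lower values at day 15 follow from the choice and are no separate result.

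The kinases Akt1 and Akt2, which carry the signal to FoxO factors, metabolism and growth, had the steadiest values of the members. Akt1 measured 12.37, 12.38, 12.29 and 12.26, a difference of −0.10 ± 0.16 (SE; limma adjusted p = 0.931). Akt2, the isoform most tied to insulin-stimulated glucose uptake, measured 12.43, 12.33, 12.54 and 12.57, a difference of 0.18 ± 0.16 (SE; limma adjusted p = 0.816). Neither gene's arrays overlapped between days, but the limma 95% intervals reached from −0.49 to 0.29 for Akt1 and from −0.22 to 0.58 for Akt2. A second, dimmer probe set of Akt2, annotated to the same transcripts, gave 0.21. Whether the brighter probe set, on which every Akt2 value and the ratio of Akt2 to Akt1 rest, measures Akt2 alone was not settled.

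FoxO factors are the transcription factors that Akt restrains. Foxo1 measured 11.19, 11.46, 11.45 and 11.75, and day 0 replicate 2 lay between the day 15 arrays. The difference was 0.28 ± 0.20 (SE; limma adjusted p = 0.732), and it ran from 0.13 without day 15 replicate 2 to 0.42 without day 15 replicate 1. Foxo3 measured 10.73, 10.63, 10.63 and 11.40, so that only day 15 replicate 2 stood above the rest. Its difference of 0.34 ± 0.28 (SE; limma adjusted p = 0.782) turned to −0.04 without that array. The other FoxO genes, Foxo4 and Foxo6, named after their values were seen, also overlapped between days, with differences of 0.19 and 0.24 (limma adjusted p = 0.942 and 0.804).

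Pdk4 and Sesn3, the FoxO targets that are not themselves part of the receptor pathway, had differences of opposite sign. Pdk4 encodes a kinase that switches off pyruvate dehydrogenase and so spares glucose, and insulin lowers it in muscle and liver. It measured 12.27, 12.01, 10.61 and 11.30, with both day 15 arrays below both day 0 arrays. The means were 12.14 ± 0.18 and 10.96 ± 0.49 (SD, n = 2), and the difference of −1.19 ± 0.27 (SE), 2.28-fold lower, was not called (limma adjusted p = 0.139). Without day 15 replicate 1 the difference was −0.84, and without day 15 replicate 2 it was −1.54. Sesn3 encodes a sestrin, a stress protein that restrains mTORC1 signaling. It measured 11.32, 10.65, 11.77 and 11.91, with both day 15 arrays above both day 0 arrays and the day 0 arrays 0.67 log2 apart. The difference of 0.85 ± 0.26 (SE), 1.81-fold higher, was not called (limma adjusted p = 0.248), and leaving out day 0 replicate 2 or day 0 replicate 1 gave 0.52 or 1.19.

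The sequences before the starts of Pdk4 (GRCm38.p6 chr6:5496279-5496528, minus strand) and Sesn3 (chr9:14276051-14276300, plus strand) are shown for comparison with those of the Irs genes. Neither holds the letters searched, so nothing is in capitals.
Pdk4: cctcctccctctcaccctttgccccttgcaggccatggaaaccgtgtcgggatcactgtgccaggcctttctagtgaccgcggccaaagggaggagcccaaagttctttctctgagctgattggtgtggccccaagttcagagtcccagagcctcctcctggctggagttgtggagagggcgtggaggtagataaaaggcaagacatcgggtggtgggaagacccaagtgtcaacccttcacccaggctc
Sesn3: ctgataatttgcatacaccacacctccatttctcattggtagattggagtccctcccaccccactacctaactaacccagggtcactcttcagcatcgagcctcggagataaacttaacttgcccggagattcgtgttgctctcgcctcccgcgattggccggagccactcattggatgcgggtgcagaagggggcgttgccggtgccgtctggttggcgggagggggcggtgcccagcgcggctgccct
This says only that GTAAACA and CAAAACA are not in these windows. Among the 29 listed FoxO targets that had a window, 8 held a match, which counts Irs2.

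These targets and their relatives formed 1 list of 10 kinases and phosphatases of pyruvate dehydrogenase, its subunit Pdha1 and the sestrins. None was called, against 1.72% of all genes. A limma unadjusted p below 0.05 was found for 7, with Pdk4 and Sesn3 included, against 12.2% of all genes. The list was chosen with earlier results of these data known, and Pdk4 and the sestrins count again among the FoxO targets below. The list's median difference was 0.53 log2 beside 0.02 for all genes. Sesn1 measured 11.28, 10.56, 12.10 and 11.84, a difference of 1.05 ± 0.28 (SE; limma adjusted p = 0.196). Sesn2, named after its values were seen, measured 10.07, 9.87, 10.56 and 10.97, a difference of 0.80 ± 0.21 (SE; limma adjusted p = 0.190). All 3 sestrins, the member Sesn3 included, had both day 15 arrays above both day 0 arrays, as did 22.3% of all genes. Among the pyruvate dehydrogenase kinases, also named after their values were seen, Pdk4 was the only one with a negative difference. Pdk1 differed by 0.65 and Pdk2 by 0.57 (limma adjusted p = 0.185 and 0.382), and Pdk3 by 0.01 with overlapping days.

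Paralog members were also set against each other within each array, which removes a factor common to the array. The log2 ratio of Irs2 to Irs1 changed by −1.69 from day 0 to day 15. Its SD was 0.02 over the day 15 arrays and 0.67 over the day 0 arrays. The ratio of Igf1r to Insr changed by −0.89, that of Akt2 to Akt1 by 0.28 and that of Foxo3 to Foxo1 by 0.07, which turned negative without day 0 replicate 2 (−0.12) or day 15 replicate 2 (−0.17). Days did not overlap for the first 3 ratios and overlapped for the last. The exact two-sided permutation p was 0.333 for each of the first 3, the smallest that 2 against 2 arrays allow, and 0.667 for the last, so this design could not reach 0.05.

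**Figure D3:**
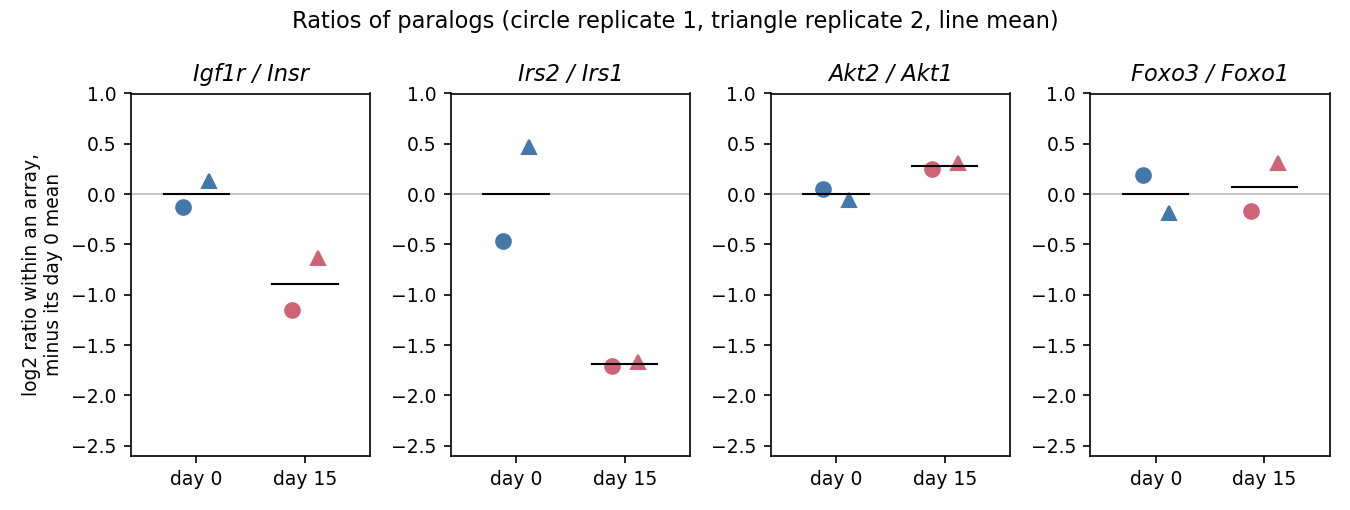
Each panel shows the log2 ratio of 2 paralogs within an array, minus the mean of that ratio at day 0, with circles for replicate 1, triangles for replicate 2 and a line at the mean of a day. The Irs2 to Irs1 ratio moved by −1.69 log2, and its day 15 arrays nearly coincide.

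The 2 day 15 arrays differed from each other in the same direction for most members. Replicate 1 was below replicate 2 at day 15 for 9 of 10 members, Akt1 being the exception, against 44.4% of all genes. At day 0 it was below for 4 of 10, against 49.9% of all genes. The gaps at day 15 were 0.94 log2 for Irs2, 0.91 for Irs1, 0.89 for Igf1r, 0.77 for Foxo3, 0.70 for Pdk4, 0.36 for Insr, 0.29 for Foxo1, 0.14 for Sesn3 and 0.03 for Akt2. The median gap between these arrays over all genes, in either direction, was 0.224.

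The pathway was also counted in lists, which hold again the members that belong to them. For comparison, 1.72% of all genes were called, and 12.2% had a limma unadjusted p below 0.05. Among 17 receptors, docking proteins and adaptors none was called, and the median difference was −0.07 log2. A limma unadjusted p below 0.05 was found for 4 of them, with the members Igf1r and Irs2 included. Among 12 measured proteins that damp the receptor or its docking proteins, 1 rose and none fell, with a median of −0.11. Grb10, an adaptor that binds the insulin receptor and inhibits it, measured 6.61, 6.38, 8.96 and 8.86 and rose by 2.42 ± 0.18 log2 (SE), or 5.35-fold (limma adjusted p = 0.0048). It remained called without any 1 of the 4 arrays (limma adjusted p = 0.00887 to 0.0233). The probe set was dim at day 0, and no background flag was used. Socs2, a cytokine-induced inhibitor of growth hormone signaling, measured 7.91, 9.77, 11.62 and 11.39, a difference of 2.66 ± 0.57 (SE) that was not called (limma adjusted p = 0.122).

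Among 16 measured genes of PI3-kinase, Akt and opposing phosphatases, 1 fell and none rose, with a median of 0.01 log2. Pik3cb, a catalytic PI3-kinase subunit, measured 11.43, 11.76, 10.05 and 10.36 and fell by 1.39 log2 (limma adjusted p = 0.043). Its call was lost without any 1 of the 4 arrays (limma adjusted p = 0.0609 to 0.156) and on the deposited scaling (0.0536). Pik3ip1, an inhibitor of PI3-kinase, differed by 0.75 ± 0.32 (SE; limma adjusted p = 0.443). None of 14 measured mTOR pathway genes was called or had a limma unadjusted p below 0.05, and their median was −0.08. Their largest differences were −0.62 ± 0.36 (SE) for Eif4ebp2, a translation repressor with overlapping days, and −0.58 ± 0.24 for Mtor, the kinase itself (limma adjusted p = 0.623 and 0.414).

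Among 13 genes of glucose uptake and glycogen synthesis, 1 rose and none fell, with a median of −0.06 log2. Ppp1r3c, which targets protein phosphatase to glycogen and promotes its synthesis, measured 7.12, 8.08, 10.67 and 10.06. It rose by 2.77 ± 0.37 log2 (SE), or 6.82-fold (limma adjusted p = 0.0305), and lost its call without day 15 replicate 1 (0.11) and without day 15 replicate 2 (0.0542). Its probe set was dim on day 0 replicate 1, where no background flag was used, so the fold is uncertain. Acly, which makes acetyl-CoA for lipid synthesis, differed by −0.44 ± 0.22 (SE; limma adjusted p = 0.523). Slc2a4, the insulin-responsive glucose transporter, was named after its values were seen and had dim values with overlapping days at 7.72, 7.79, 7.62 and 7.82. Among 13 measured FoxO factors and their regulators none was called, 2 had a limma unadjusted p below 0.05, and the median was 0.07. These were Sgk1, a kinase that also phosphorylates FoxO factors, with a difference of −1.09 ± 0.29 (SE; limma adjusted p = 0.201), and Prmt1, a methyltransferase, with −0.54 ± 0.16 (0.244).

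Of 31 measured FoxO targets, 2 rose, 1 fell and 28 were not called, beside 1.30% of all genes called higher and 0.411% called lower. The list was chosen with earlier results of these data known. A limma unadjusted p below 0.05 was found for 16, with the members Irs2, Pdk4 and Sesn3 included, against 12.2% of all genes. Of these 16, Irs2, Pdk4 and Cited2 were lower at day 15 and the rest were higher. Both day 15 arrays lay above both day 0 arrays for 14 of the 31 and below for 6, against 22.3% and 17.8% of all genes. A positive difference was found for 20 of the 31. The list's median was 0.32 log2, beside 0.02 for all genes, and it was 0.50 without day 15 replicate 2. Ppargc1a, a coactivator of mitochondrial genes, measured 7.09, 6.92, 8.62 and 9.27 and rose by 1.94 ± 0.26 log2 (SE; limma adjusted p = 0.0297). Gadd45a, a growth arrest and stress gene, rose by 1.27 ± 0.17 (SE; limma adjusted p = 0.0294). Cited2, a transcriptional cofactor, was named because it was the third called gene, and it fell by 1.05 log2 from 13.43 ± 0.04 to 12.37 ± 0.01 (SD, n = 2; limma adjusted p = 0.0444). Without 1 array, the number called in this list was 0 for 3 of the 4 arrays and 1 without day 15 replicate 1. The FoxO targets best known from liver, Igfbp1, Pck1 and G6pc, differed by −0.17, 0.11 and −0.02 and were also named after their values were seen. Their probe sets were dim, with day 0 means of 7.40, 7.61 and 6.50, and without a detection flag they cannot be told from background.

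**Figure D4:**
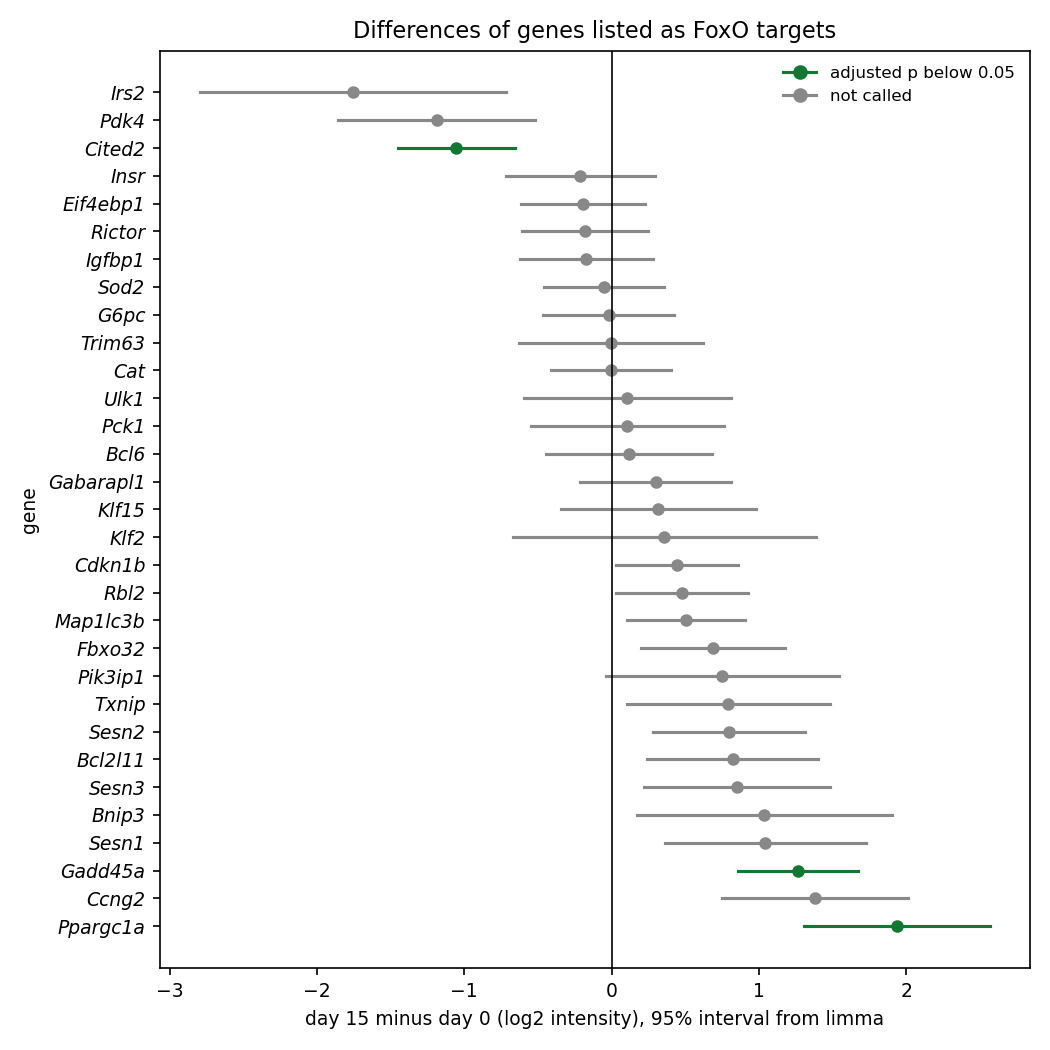
Points are day 15 minus day 0 differences in log2 intensity of 31 genes listed as FoxO targets, bars are limma's 95% intervals over 4 arrays, and green marks genes with an adjusted p below 0.05. Irs2 and Pdk4 have the most negative differences of the list and Sesn3 lies in its upper part, with Ppargc1a (1.94 log2) as the highest.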

How the data were processed

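Total RNA of 4 ATDC5 samples was labelled with biotin and measured on 1-colour whole-transcript arrays, per the labels' protocols. The deposited table holds linear probe set intensities, judged from the values; per the submitters' processing notes the build was mm9. For background correction, probe summarization and normalization the method was not given in the sources used here. Without a detection flag, dim values cannot be told from background.

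Of 35512 probe sets, 21789 had 1 gene symbol, 1621 several and 12102 none; only the first were used, and 21698 had a gene identifier found in the RefSeq table. The brightest probe set was kept for the 999 genes with more than 1, leaving 19938. Intensities were turned to log2 after adding 1 and quantile normalized over all probe sets. limma 3.58.1 in R 4.3.3 (lmFit, eBayes, group as the only term) was fitted to all genes, with Benjamini-Hochberg adjustment over all of them, and was tested on simulated data. There it recovered 6% of changes of 1 log2 and 94% of changes of 2 log2, with 50 genes changed at each size. Figures used Python 3.11.15 and matplotlib 3.10.9. Promoter windows are RefSeq's, GRCm38.p6.

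The members and gene lists were chosen with earlier results of these data known. The text names all members, the 2 largest called genes of each list, or the 2 largest differences where fewer than 2 were called, and the 5 genes closest to the member with the largest difference; the cartilage, macrophage, myelin and fat cell markers and the genes marked so in the text were named after their values were seen. Some genes of the lists were not analysed here. The alternatives were the deposited scaling, median centring, a filter at the median level, eBayes with trend and robust settings, a pseudocount of 16, averaging a gene's probe sets, a term for the replicate number, all probe sets tested together, and leaving out each array. Arrays left out were removed after normalization, and the fit then takes the remaining array of that day to have the same spread as the other day's arrays.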

Additional observations from a re-analysis of the deposited data

How the results depend on the processing

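The 10 members were recomputed under 12 alternatives each. Of these 120 values, 117 kept their direction and their side of the threshold, 1 became called and 2 changed sign. Without 1 array, Irs1 ran from −0.52 to 0.39 log2 (positive without day 15 replicate 1) and Foxo3 from −0.043 to 0.73 (negative without day 15 replicate 2). With the replicate block, 1 member was called, Irs2 at −1.76 log2 (limma adjusted p = 0.00828). The labels do not say that a number marks a shared culture or batch, and with 2 pairs the correlation of same-numbered deviations (0.40 across genes) cannot settle it. Under the block 628 genes were called (440 higher, 188 lower), with 1 in the receptor and adaptor list and 5 among FoxO targets. Testing all probe sets together called 74 (69 higher, 5 lower) and 0 among FoxO targets, 0 in the glucose list and 0 in the PI3-kinase list. The PI3-kinase list also had 0 on the deposited scaling. The filter at the median level left Grb10 out, so 0 were called among receptor inhibitors. Without 1 array the members called stayed at 0, and Irs2 had a limma adjusted p of 0.0699 to 0.399. All genes called numbered 178 to 284, with 149 to 219 higher and 29 to 65 lower. The lists then had 0 to 1 called among FoxO targets, 0 to 1 in the glucose list, 0 in the PI3-kinase list and 1 to 2 among receptor inhibitors. Ppargc1a lost its call without any array but day 15 replicate 1 (limma adjusted p = 0.0503 to 0.0762), and Gadd45a and Cited2 without any 1 array (0.0831 to 0.119 and 0.131 to 0.18). Cited2 also lost it on the deposited scaling (0.0532) and with median centring (0.0524). The cause was not tested for these changes beyond the fewer arrays, or the more features, in a fit. Signal over background is unknown for dim probe sets, so the day 0 levels of Grb10, Ppargc1a and Ppp1r3c are uncertain.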

Other observations

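Genes of fat cells, another insulin-responsive fate of mesenchymal cells, were counted as a list of 7. Pparg, the main transcription factor of fat cells, measured 11.47, 11.68, 10.61 and 10.60, a difference of −0.97 ± 0.17 log2 (SE) that was not called (limma adjusted p = 0.0695). Cebpa, its partner, differed by 0.27, and Adipoq, Fabp4 and Plin1 by −0.24, −0.25 and −0.17. The probe sets of Adipoq and Fabp4 were dim, with day 0 means of 6.81 and 6.98, and cannot be told from background. No gene of this list was called, and its median difference was −0.17 log2.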
